A study of Mus musculus with 33 samples.

Results

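The 8 inflammasome and IL-1 family genes described here are Nlrp3, Pycard, Casp1, Il1b, Il18, Il1r2, Il1rn and Il1rap, chosen by name among the 750 endogenous probes of a NanoString immune panel. All 8 were present and all 8 entered the test, which covered 655 genes. Relative gene expression was measured in whole bone marrow (BM) RNA of 33 female C57BL/6 mice aged 6 to 8 weeks, 1 nCounter lane per mouse. The nCounter counts colour-barcoded probes bound to RNA molecules without amplification. Mice were given the BCL2 inhibitor venetoclax, the JAK1/2 inhibitor ruxolitinib or the vehicle of either by oral gavage for 2 days. BM was taken from drug and vehicle mice at 1, 3 or 7 days post-treatment, with 3 mice per drug group and 2 per vehicle group, and 3 further mice were untreated, which makes 13 groups. All mice were of the wild-type strain, and the venetoclax and ruxolitinib vehicles were different solvent mixtures. Doses stand in the labels as 100 mg/ml of venetoclax and 180 mg/ml of ruxolitinib, while the methods give the same figures per kg. In bulk BM, fewer cells of a type and less RNA per cell cannot be told apart.

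The NLRP3 inflammasome is a protein complex of myeloid cells in which the sensor NLRP3 recruits the adaptor ASC, encoded by Pycard, and the protease caspase-1, encoded by Casp1. Caspase-1 cleaves the precursors of IL-1β (Il1b) and IL-18 (Il18) into secreted cytokines. IL-1 signals through a receptor that needs the accessory chain IL-1RAP (Il1rap), and it is held back by the decoy receptor IL-1R2 (Il1r2) and the receptor antagonist IL-1RN (Il1rn). Much of this system is controlled after transcription, by cleavage and secretion, which RNA counts do not measure.

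The genes lie on 6 chromosomes of GRCm38.p6, the assembly of the RefSeq gene table. Nlrp3 is at chr11:59541569-59566955, Pycard at chr7:127991373-127993867, Casp1 at chr9:5298517-5307281 and Il18 at chr9:50554700-50581841. Il1b is at chr2:129364569-129371164, Il1rn at chr2:24336860-24351491, Il1r2 at chr1:40084692-40125230 and Il1rap at chr16:26581509-26730128. RefSeq promoter windows, 250 bases before to 50 after a start site, matched all 8 genes in 11 windows, since Nlrp3 has 2 start sites and Il1rn has 3. Of these 4 are printed: Il1r2 because it was the one window with a GAS sequence, the kind of site that STAT factors downstream of JAK1/2 bind, and Il1rn, Il1rap and Nlrp3 because their RNA differed most between days. In these 4, capitals mark matches to the motifs searched, and each is on the plus strand and written 5′ to 3′.
Il1r2, chr1:40085843-40086142: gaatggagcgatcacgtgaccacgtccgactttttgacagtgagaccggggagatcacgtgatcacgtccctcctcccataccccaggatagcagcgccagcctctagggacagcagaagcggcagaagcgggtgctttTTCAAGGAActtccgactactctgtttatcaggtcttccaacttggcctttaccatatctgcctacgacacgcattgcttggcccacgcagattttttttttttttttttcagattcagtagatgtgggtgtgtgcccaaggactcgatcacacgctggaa
Il1rn, chr2:24336610-24336909: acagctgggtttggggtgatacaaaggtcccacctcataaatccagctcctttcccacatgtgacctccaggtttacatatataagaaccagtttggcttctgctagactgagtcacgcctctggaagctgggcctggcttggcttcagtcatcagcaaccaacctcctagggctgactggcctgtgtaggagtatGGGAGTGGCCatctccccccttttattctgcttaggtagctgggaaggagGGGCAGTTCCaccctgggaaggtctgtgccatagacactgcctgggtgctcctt
Il1rap, chr16:26581455-26581754: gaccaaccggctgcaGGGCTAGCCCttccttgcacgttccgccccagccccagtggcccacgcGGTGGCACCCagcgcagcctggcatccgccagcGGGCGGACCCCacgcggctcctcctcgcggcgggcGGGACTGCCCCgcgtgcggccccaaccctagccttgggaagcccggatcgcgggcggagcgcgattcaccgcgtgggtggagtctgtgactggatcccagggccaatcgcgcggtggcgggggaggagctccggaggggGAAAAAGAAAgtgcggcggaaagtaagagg
Nlrp3, chr11:59542436-59542735: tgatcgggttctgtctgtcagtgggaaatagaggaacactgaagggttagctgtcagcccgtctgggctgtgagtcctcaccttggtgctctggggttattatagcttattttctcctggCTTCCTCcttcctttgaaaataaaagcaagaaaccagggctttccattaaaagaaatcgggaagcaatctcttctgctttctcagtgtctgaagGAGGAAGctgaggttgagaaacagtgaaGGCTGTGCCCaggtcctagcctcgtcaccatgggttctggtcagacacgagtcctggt

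Motifs were searched on both strands, and overlapping matches were kept. The GAS letters TTCNNNGAA stood in 1 of the 11 windows, at position -111 from the Il1r2 start site, and in 8.30% of all 32851 promoter windows. The ISRE core, GAAA and GAAA around any 2 bases, a site type for interferon-regulated factors, stood in 1 window, at position 20 of Il1rap, against 3.44% of all windows. The PU.1 core GAGGAAG, named for a myeloid factor, stood in 2 windows, at -130 and -36 of Nlrp3 and at -43 of Pycard, against 13.6% of all. The C/EBP letters TTGCNNAA stood in 1 window, at -142 of Pycard, against 10.8% of all. A wide NF-κB form, GGG and CC around any 5 bases, stood in 7 of the 11 windows and in 50.8% of all, so it does not set these genes apart from promoters at large. A narrower form, GGG and TTCC around any 3 bases, was added only after the matches of the wide form had been seen. It stood in 3 windows, all of Il1rn, against 5.56% of all, and a pair of these windows overlap and share a single match. No window of Il1b or Il18 held any of these letters. A match is a description of letters in a window, and binding was not measured.

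Endogenous counts per lane totalled 18056 to 466096 (median 158944), and 2 lanes, 1 of venetoclax day 1 and 1 of ruxolitinib day 3, were under 30000. Between 33.6% and 79.87% of probes were above background, set per lane at 1.83 to 7.85 counts. Each day was a run of 11 lanes with 1 untreated mouse in it, so day and run cannot be told apart, and the header of the day 3 run reads Day 2. Of the neutrophil markers 10 of 13 listed were tested, with summed normalised counts of 57958 to 123110 over the treated mice, mostly S100a8. No other tissue was measured to set the BM label against.

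Of the sensor and its partners, Casp1 was above background in all 33 lanes, Nlrp3 in 32 and Pycard in 24. The cytokine genes Il1b and Il18 were above background in 31 and 28 lanes. Among the receptors and inhibitors, Il1r2 was above background in 32 lanes, and Il1rn and Il1rap in 30 each. Pycard had raw counts of 1 to 30 (median 10), so its values rest on few molecules, and the median raw counts of Il18 and Il1rap were 15 and 20. The levels below are normalised counts, raw counts scaled by housekeeping probes, and are comparable between mice for 1 gene but not between genes.

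**Figure D1:**
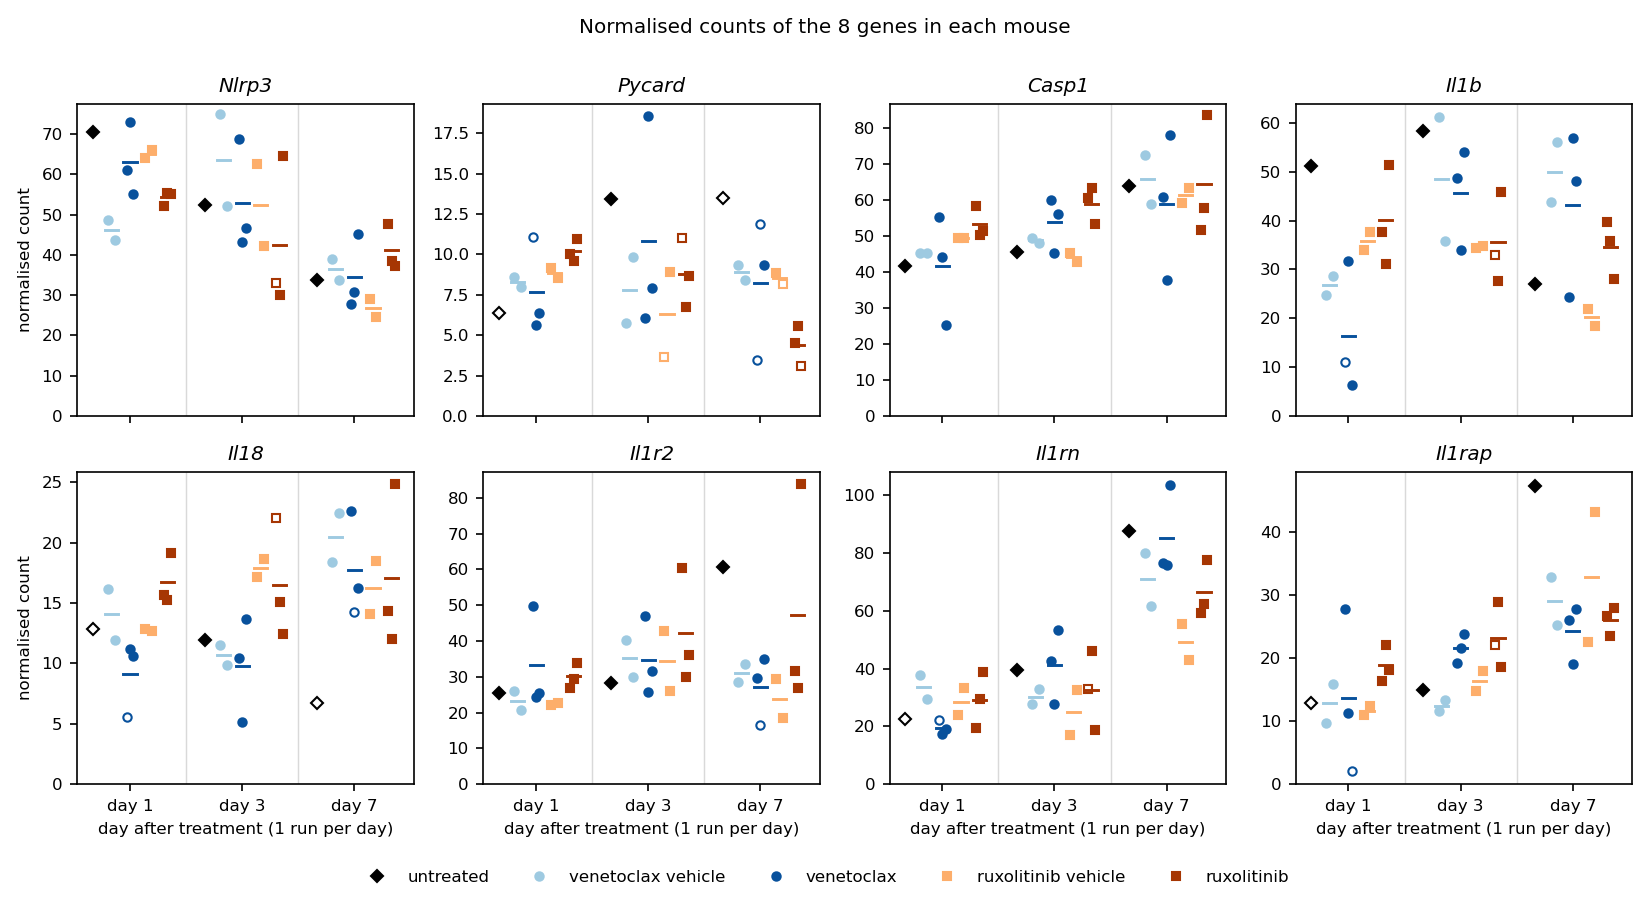
Normalised count of each gene (vertical axis, linear, from 0) in every mouse, by day and treatment (horizontal axis). Points are single mice, open points were not above background, and short lines are group means. Il1rn is highest on day 7 in every treatment, with 43 to 104 normalised counts in treated mice against 17.4 to 38.8 on day 1.

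No member passed the test between a drug and its vehicle. Over the 15 planned comparisons the edgeR quasi-likelihood test, with Benjamini-Hochberg adjustment over 655 genes, called 0 of the 8 genes, and 2 of the gene and comparison pairs had an unadjusted p below 0.05. DESeq2 and limma also called 0. These p-values measure the spread between mice of a group, with 2 or 3 mice in each. For venetoclax the share of all genes called was 0.153% on day 1, 0% on day 3, 0.153% on day 7, 2.9% for the mean of 3 days and 0% for day 7 minus day 1. For ruxolitinib it was 2.75%, 0.153% and 0.153% on days 1, 3 and 7, 1.22% for the mean of 3 days and 1.53% for day 7 minus day 1. A count of 0 among 8 genes lies close to these shares. An interval that spans 0 does not show that a drug left a gene alone: on single days the intervals of these genes reached from -1.73 to 1.56 on the log2 scale for venetoclax.

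Nlrp3 encodes the sensor. On day 1 the venetoclax mice had 61.0, 72.9 and 55.2 normalised counts and their vehicle mice 48.6 and 43.8. Ruxolitinib mice of that day had 52.1, 55.4 and 55.2, and their vehicle mice 64.1 and 66.1. All venetoclax mice were thus above their vehicle and all ruxolitinib mice below theirs. The 61.0 is 11 raw counts in the venetoclax lane of day 1 under 30000 counts. The vehicle groups of that day stood apart from each other, and every ruxolitinib mouse was above both venetoclax vehicle mice, while the ranges of the drug groups overlapped. The test of that difference between drugs gave a log2 difference of 0.76, SE 0.40 and an adjusted p of 0.407 in edgeR, with 1.68% of all genes called. On day 7 the ruxolitinib mice, at 47.6, 38.5 and 37.3, were all above their vehicle mice at 29 and 24.6. The ruxolitinib response of Nlrp3 was higher on day 7 than on day 1 by 0.86, SE 0.40, with an unadjusted p of 0.0395 and an edgeR adjusted p of 0.477. Over the other settings this value ran from 0.42 to 0.98, and no setting called it. On day 3 both drugs overlapped their vehicles.

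Pycard encodes the adaptor ASC. On day 7 the ruxolitinib mice had 4.51, 5.58 and 3.11 normalised counts, below the 8.85 and 8.20 of their vehicle mice. These values stand for raw counts of 11, 19 and 1 against 29 and 4, and 1 lane of each group was not above background. On day 1 the ruxolitinib mice, at 10.0, 9.62 and 10.9, were instead all above their vehicle mice at 9.16 and 8.56. Over all groups Pycard was lowest in ruxolitinib day 7, 4.40 ± 1.24 (SD, n = 3), and highest in untreated mice, 11.1 ± 4.08 (n = 3), of which 2 of 3 lanes were not above background.

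Casp1, the protease gene, had the smallest spread of the 8 genes, with a within-group SD of 0.30 on the log2 scale against a median of 0.50 over all genes. Its highest and lowest group means differed 1.58-fold, from 41.7 ± 15.2 in venetoclax day 1 to 65.8 ± 9.67 in venetoclax vehicle day 7. On day 3 the ruxolitinib mice had 60.5, 63.3 and 53.3 normalised counts and their vehicle mice 45.3 and 43. These groups did not overlap, nor did those of day 1, where the ruxolitinib mice had 58.4, 50.3 and 51.4 and the vehicle mice 49.5 and 49.6. The log2 fold change was 0.43, SE 0.27, on day 3 and 0.11, SE 0.24, on day 1, with edgeR adjusted p of 0.998 and 0.877, so neither passed the test. The 60.5 of day 3 is 11 raw counts in the ruxolitinib lane under 30000 counts.

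Il1b, the IL-1β gene, gave the other unadjusted p below 0.05. On day 7 the ruxolitinib mice had 39.8, 35.8 and 28 normalised counts and their vehicle mice 22 and 18.4, with no overlap. The 28 and the 18.4 are 9 raw counts each. The log2 fold change was 0.78, SE 0.37, 95% confidence interval 0.037 to 1.53, with an unadjusted p of 0.0401 and an edgeR adjusted p of 0.999. Over the other settings it ran from 0.12 to 0.86. The venetoclax vehicle mice of the same day, at 43.8 and 56.2, were above all 3 ruxolitinib mice. In venetoclax day 1 the mice spanned 11.1, 31.8 and 6.36, and 2 of these lanes rested on 2 and 3 raw counts. That group had the lowest Il1b mean, 16.4 ± 13.5, and venetoclax vehicle day 7 the highest, 50.0 ± 8.78.

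Il18, the IL-18 gene, also stood on opposite sides of the vehicles on day 1. Venetoclax mice had 5.55, 11.2 and 10.6 normalised counts against 16.2 and 11.9 in their vehicle. Ruxolitinib mice had 15.7, 15.3 and 19.1 against 12.8 and 12.7. The difference between the drugs was -0.79 on the log2 scale, SE 0.48, with an edgeR adjusted p of 0.493, so it did not pass. The lowest venetoclax value is a single raw count. On day 3 and day 7 the drug and vehicle mice overlapped for both drugs.

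Of the decoy receptor Il1r2, ruxolitinib mice had 27, 29.4 and 33.9 normalised counts on day 1 against 22 and 22.6 in their vehicle. Its highest group mean, 47.4 ± 31.7 in ruxolitinib day 7, was carried by a single mouse at 83.9 beside 31.6 and 26.7. The SD of that group was larger than its distance to any other group mean, the lowest being 22.3 ± 0.44 in ruxolitinib vehicle day 1.

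The antagonist gene Il1rn had the widest range of group means, 4.36-fold, from 19.6 ± 2.41 in venetoclax day 1 to 85.3 ± 15.9 in venetoclax day 7 (n = 3 each). On day 1 the venetoclax mice had 22.2, 17.4 and 19.1 normalised counts, all below the 37.8 and 29.5 of their vehicle mice. The 22.2 is 4 raw counts in the shallow lane and was not above background, and it enters the lowest group mean. This was the lowest of the 8 log2 fold changes of that comparison, -0.85, with an edgeR adjusted p of 0.515. On day 7 the venetoclax mice had 76.4, 75.9 and 104 and the vehicle mice 80.1 and 61.8. Those groups overlapped, while the ruxolitinib mice of that day, at 59.0, 62.3 and 77.7, were all above their vehicle at 55.6 and 43.

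Il1rap, the accessory chain, had the largest spread, a within-group SD of 0.65. On day 3 the venetoclax mice had 19.2, 21.6 and 23.8 normalised counts, all above the 11.5 and 13.3 of their vehicle mice. The ruxolitinib mice of day 3, at 22, 28.9 and 18.6, were above their vehicle at 14.7 and 17.8 too, and so were those of day 1, at 16.3, 22.1 and 18.1 against 11 and 12.3. The 22 of day 3 is 4 raw counts, not above background. Venetoclax on day 3 had the highest of the 8 log2 fold changes of its comparison, 0.77, with an edgeR adjusted p of 0.464. On day 7 drug and vehicle mice overlapped for both drugs.

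In the order of the 13 group means of each gene, 0 to 2 of the 12 steps between neighbouring groups were larger than the larger SD of the pair. Sorting by the mean makes such steps small, so this count describes the order only. Counted together, the members without overlap between drug and vehicle were 3 of 8 for venetoclax on day 1, 1 on day 3 and 0 on day 7. Among all genes the share without overlap was 27.5%, 26.1% and 17.3% on those days. For ruxolitinib the members numbered 6 of 8 on day 1, 2 on day 3 and 4 on day 7, beside 44%, 15.6% and 17.7% of all genes. On ruxolitinib day 1, 5 members were above the vehicle and Nlrp3 was below. With 3 mice against 2 an exact test of a single gene cannot give a two-sided p below 0.2. The median log2 fold change of the 8 genes was -0.29 for venetoclax on day 1 and 0.19 for ruxolitinib on day 1, beside medians of -0.02 and 0.13 over all genes.

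Cell markers also differed between some of these groups. On ruxolitinib day 1 all 4 stroma markers were positive and 1 was called, the chemokine gene Cxcl12, with a log2 fold change of 1.93 and an edgeR adjusted p of 0.00533. The summed stroma level was 244.5 to 319.0 normalised counts in those mice and 99.6 to 109.9 in their vehicle. Of the myeloid markers in the same comparison, 8 of 10 neutrophil markers were positive and 1 had an unadjusted p below 0.05, with a median log2 fold change of 0.39 beside 0.13 over all genes. Of 11 monocyte and macrophage markers 7 were positive and 2 had an unadjusted p below 0.05, with a median of 0.31, and 0 of either list were called. There, too, 2 of 5 NK cell markers had an unadjusted p below 0.05 and 0 were called, with a median log2 fold change of -0.73 and sums of 45.2 to 56.9 beside 69.6 to 74.3 in the vehicle. The summed T cell level was 66.5 to 74.9 beside 56.8 to 62.3, with 1 of 6 markers at an unadjusted p below 0.05 and 0 called. The erythroid marker Tfrc, the transferrin receptor gene, was not called on day 1 of either drug and had an unadjusted p below 0.05 in both, with log2 fold changes of -0.48 for ruxolitinib (258.6 to 354.6 beside 401.2 to 441.4 normalised counts) and -0.71 for venetoclax (266.0 to 282.9 beside 417.4 to 473.7). The summed B cell level of venetoclax day 1 was 505.2 to 526.9 beside 549.7 to 676.5, with 0 of 8 markers called. In the same comparison the summed neutrophil level was 57963 to 123110 beside 83183 to 95454 in the vehicle. The summed monocyte and macrophage level was 5391 to 8440 beside 6606 to 8026, and 0 of either list were called. On ruxolitinib day 3 none of 8 B cell markers was positive, 6 had an unadjusted p below 0.05, and Igll1, a chain of the pre-B cell receptor, was called with a log2 fold change of -1.93 and an edgeR adjusted p of 0.00111. Their sum was 311.2 to 423.8 in ruxolitinib mice of day 3 and 690.1 to 727.4 in the vehicle, and on day 7 it was 428.9 to 471.6 and 659.9 to 661.2, with 0 called. Tfrc was instead higher on ruxolitinib day 3, by 0.63 on the log2 scale, with an unadjusted p below 0.05, and was not called. Its level there was 487.2 to 641.4 normalised counts beside 346.6 to 378.7 in the vehicle. In the same comparison 0 of 6 T cell markers were positive, 1 had an unadjusted p below 0.05 and 0 were called, with a median of -0.61. On ruxolitinib day 7 all 10 neutrophil markers were positive and 0 called, with a median log2 fold change of 0.24. Of 11 monocyte and macrophage markers there, 8 were positive, 0 were called and 0 had an unadjusted p below 0.05, with a median of 0.03 beside 0.02 over all genes. Of 4 stroma markers on ruxolitinib day 7, 3 were positive, 1 had an unadjusted p below 0.05 and 0 were called, with values from -0.85 to 1.68. On venetoclax day 3, 8 of 10 neutrophil markers were positive, 6 had an unadjusted p below 0.05 and 0 were called, with a median of 0.75 beside 0.06 over all genes. None of the 6 T cell markers was positive there, 4 had an unadjusted p below 0.05 and 0 were called, with a median of -1.12. On venetoclax day 7 Igll1 was called too, with a log2 fold change of -1.54, while 3 of 8 B cell markers were positive, up to 1.22, and the median was -0.14. Of 6 T cell markers in that comparison 0 were positive, 2 had an unadjusted p below 0.05 and 0 were called, with a median of -0.86. The part of these cells in the members' values was not tested.

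**Figure D2:**
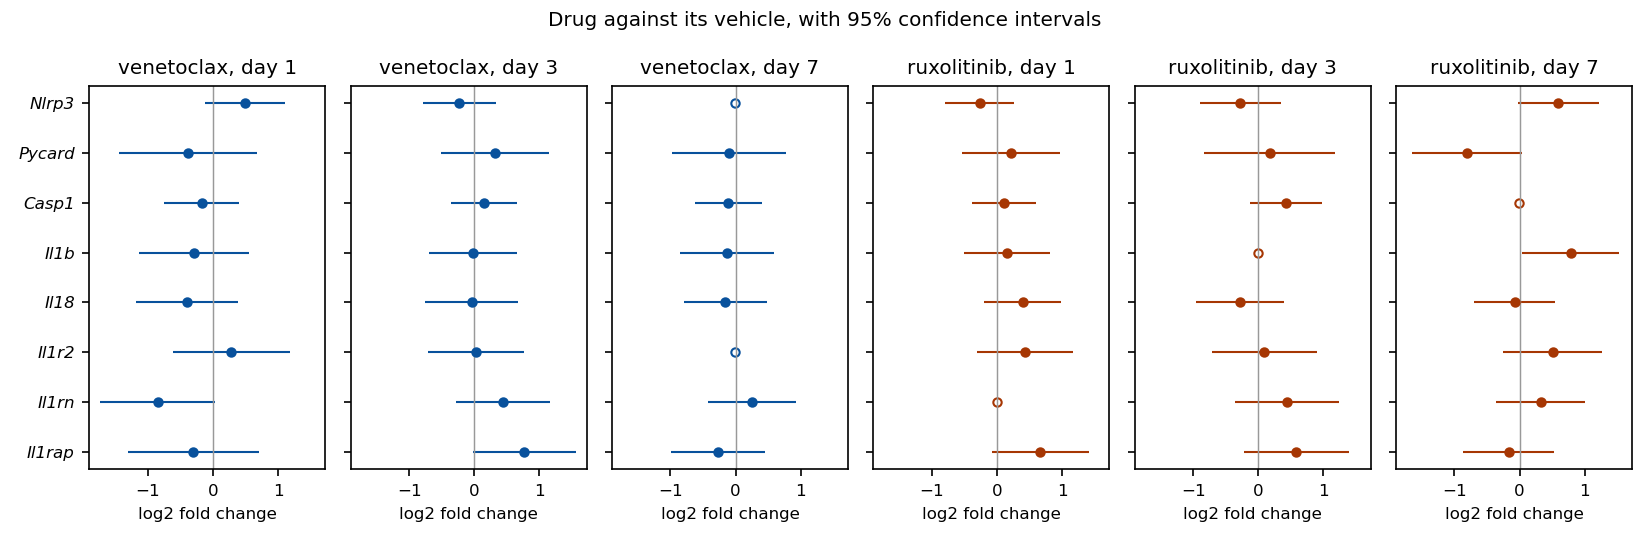
Log2 fold change of each gene (horizontal axis) for drug against its vehicle on each day, 3 mice against 2. Points are estimates and bars 95% confidence intervals, and open points are estimates within 0.01 of 0, drawn without an interval. The one interval that leaves out 0 is that of Il1b for ruxolitinib on day 7, 0.037 to 1.53.

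The responses to the drugs were also set against each other. No member passed the test between venetoclax and ruxolitinib on any day. None passed over the mean of 3 days, and on day 3, day 7 and over that mean 0.153%, 0.305% and 0.611% of all genes were called. The lowest log2 difference on day 1 was -0.97, of Il1rap, with a 95% confidence interval of -2.21 to 0.28. Over the mean of 3 days the differences ran from -0.46 for Il1b to 0.08 for Pycard. Against untreated mice, the mean of the 6 vehicle groups passed the test for 0 of 8 members and for 0% of all genes, and no member had an unadjusted p below 0.05, with log2 fold changes from -0.53 for Pycard to 0.38 for Il18.

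The differences that passed the test lay between days. Comparisons between days were added after the values had been seen, over the mean of the 4 treated groups of each day. Each day was its own run, so these are differences between runs as much as between days. Their p-values measure the spread between mice of a group and hold nothing of the spread between runs. From day 1 to day 7, 4 of 8 members passed the edgeR test, which is near the 46% of all genes that did. The count of members thus does not set them apart from the panel. Il1rn rose by 1.33 on the log2 scale, SE 0.18, edgeR adjusted p 5.02e-07. Il1rap rose by 1.04, SE 0.19, adjusted p 4.01e-05, and Casp1 by 0.42, SE 0.13, adjusted p 0.00665. Nlrp3 fell by 0.67, SE 0.15, adjusted p 0.000314, while Il1b, Il18, Il1r2 and Pycard did not pass. The Casp1 call was lost with TMM scaling (0.24), with all 20 housekeeping probes (0.26) and in DESeq2 (0.26). Over 10 other settings the values kept their sign, from 1.14 to 1.53 for Il1rn, 0.87 to 1.26 for Il1rap and -0.84 to -0.49 for Nlrp3. From day 3 to day 7, 3 of 8 passed, again near the 37.6% of all genes: Il1rn rose by 1.05 and Il1rap by 0.59, and Nlrp3 fell by 0.54. The Nlrp3 call was lost with total count scaling (-0.31), and the Il1rap call with all 20 housekeeping probes (0.41), in limma (0.60) and without venetoclax vehicle day 7 replicate 1 (0.52). From day 1 to day 3, 0 of 8 passed in edgeR, as did 0% of all genes, and 3 members had an unadjusted p below 0.05.

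The day pattern was present in vehicle and in drug mice. Il1rn had 23.8 to 37.8 normalised counts in the 4 vehicle mice of day 1, 17.1 to 32.9 on day 3 and 43 to 80.1 on day 7. In the 6 drug mice it had 17.4 to 38.8, 18.6 to 53.3 and 59.0 to 104. Every treated mouse of day 7 was above every treated mouse of day 1. Nlrp3 went the other way, with 43.8 to 66.1 in vehicle mice of day 1 and 24.6 to 39.1 on day 7, and with 52.1 to 72.9 and 27.8 to 47.6 in drug mice. Il1rap had 9.71 to 15.9 in vehicle mice of day 1 and 22.6 to 43 on day 7, without overlap, whereas its drug mice, at 2.12 to 27.7 and 19.0 to 28, overlapped. The 2.12 is a single raw count.

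Untreated mice, which had no treatment day, were also measured 1 in each run. Their Il1rn values were 22.4, 39.6 and 87.6 normalised counts in the runs of days 1, 3 and 7, and those of Il1rap 12.8, 14.9 and 47.2. Nlrp3 had 70.4, 52.3 and 33.7, and Casp1 41.6, 45.6 and 64.0. In these 4 genes the untreated mouse of the last run stood on the same side of the first as the treated mice did. Il1b, Il18 and Pycard went the other way, with 51.2 and 27, 12.8 and 6.74, and 6.40 and 13.5 in the first and last untreated mouse, beside treated means of 29.4 and 37.3, 13.1 and 17.8, and 8.80 and 7.27. Il1r2 had 25.6 and 60.7, beside treated means of 28.1 and 33.3, so 5 of 8 genes were on the same side. Several of these values were not above background: both of Il18 (raw counts of 4 and 2), both of Pycard (2 and 4), and the first of Il1rn (7) and of Il1rap (4), so the sides of those genes rest on very few counts. The untreated values are 1 mouse per run and carry no test.

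**Figure D3:**
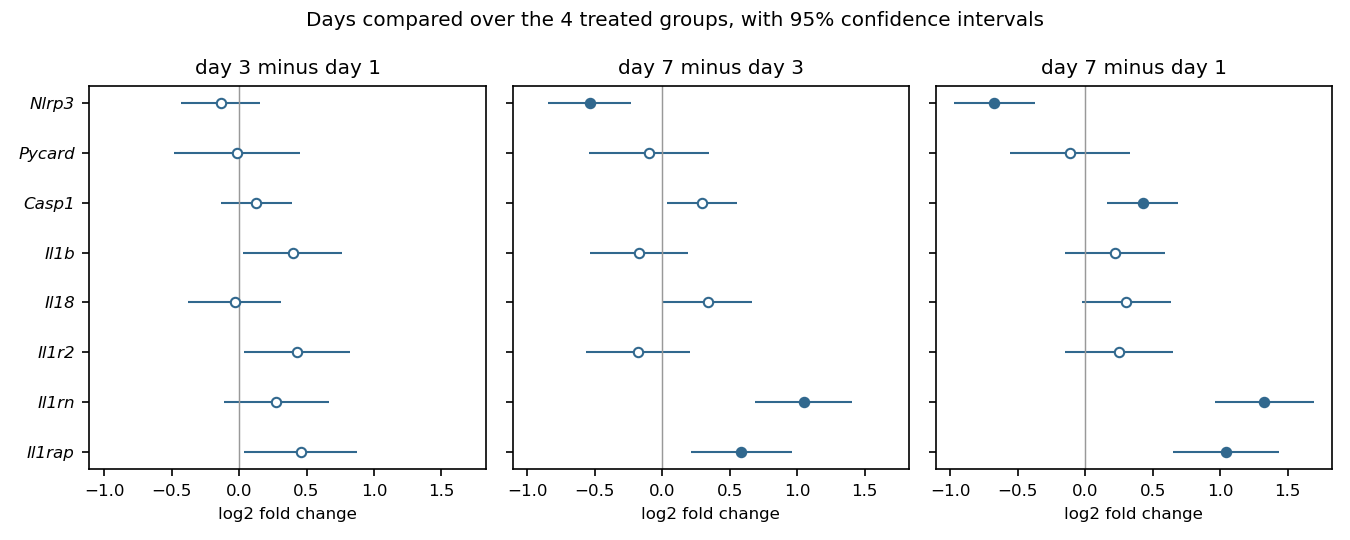
Log2 fold change of each gene (horizontal axis) between days, over the mean of the 4 treated groups. Each day was its own run, so day and run cannot be told apart. Points are estimates, bars 95% confidence intervals, and filled points have an edgeR adjusted p below 0.05. Il1rn and Il1rap lie right of 0 and Nlrp3 left of it in both comparisons with day 7.

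Markers of BM cells moved between the same days, in a comparison that called 46% of all genes, and their part in these differences was not tested. All 10 neutrophil markers tested differed between day 7 and day 1: 8 rose, among them the granule genes Elane (by 2.14), Lcn2 (1.70) and Mpo (1.45), and S100a8 and Csf3r fell by 0.88 and 0.61. The summed neutrophil level was 57963 to 123110 normalised counts on day 1 and 57958 to 87524 on day 7. S100a8 made up 80.4% to 93.9% of that sum on day 1 and 63.7% to 71.4% on day 7, and the sum of the other markers was 7562 to 13585 on day 1 and 19147 to 29427 on day 7. Of 11 monocyte and macrophage markers 8 rose, among them Cd68 (by 1.14) and Msr1 (1.09), and their sum, mostly Lyz2, went from 5391 to 9097 on day 1 to 8412 to 11609 on day 7. All 8 B cell markers differed, 3 upwards and 5 downwards. Of T cell markers 1 of 6 rose, of NK cell markers 2 of 5 and of stroma markers 1 of 4 (Vcam1, by 0.89), as did the 1 erythroid marker tested (Tfrc, by 0.53).

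Other genes of the pathway came from lists drawn up by function. Over the 15 planned comparisons no IL-1 family ligand (1 tested, Il1a), no other inflammasome sensor or regulator (7 tested) and no IL-1 induced gene (9 tested) was called. Values that were not called could still be large, such as the log2 fold change of 1.44 of Il1a for ruxolitinib on day 1, and Il1a was above background in 6 lanes. Of the 6 other IL-1 family receptors tested, Il18r1, a chain of the IL-18 receptor, was called in 1 comparison, venetoclax over the mean of 3 days, where 19 of all 655 genes (2.9%) were called, all of them lower. Over 3 days it had 5.55 to 31 normalised counts (median 18.5) in 9 venetoclax mice and 28 to 37.4 (median 31.8) in 6 vehicle mice, which overlap. It fell by 0.69 on the log2 scale, SE 0.19, edgeR adjusted p 0.0346. Of 17 genes of IL-1 receptor and TLR signalling, Rela, an NF-κB subunit, was called once, in the same comparison, and 1 of 17 lies near that share. It had 22.2 to 55.6 (median 44.2) in venetoclax mice and 52.0 to 67.4 (median 65.5) in vehicle mice, and fell by 0.48, SE 0.14, adjusted p 0.0417. Both calls depended on the setting: Il18r1 was called in 5 and Rela in 4 of 11 other settings, and in 5 and 3 of the 15 fits that left out 1 mouse. The Il18r1 value ran from -0.80 to -0.41 over those settings and was smallest with both vehicles of a day pooled, whereas that of Rela ran from -0.60 to -0.44. The lowest venetoclax values of both genes, 5.55 and 22.2, are 1 and 4 raw counts in the shallow lane of day 1, and without the lanes under 30000 counts neither was called (adjusted p 0.0537 and 0.0761). T cell markers were lower in the same comparison, 2 of 6 by the test, with log2 fold changes of -0.94 for Cd3d and -1.90 for Cd8a. The summed T cell level of venetoclax mice was 31.8 to 77.6 normalised counts on day 1, 34.0 to 43.3 on day 3 and 36.5 to 64.0 on day 7. Their vehicle mice had 58.2 to 60.4, 75.6 to 93.4 and 75.0 to 126.4. Of 8 B cell markers 1 was positive, and Cd22 was called, with a log2 fold change of -0.80. The summed B cell level was 505.2 to 526.9, 498.3 to 804.3 and 514.3 to 840.9 in venetoclax mice of the 3 days and 549.7 to 676.5, 650.2 to 895.9 and 718.1 to 733.1 in vehicle mice. Of 5 NK cell markers 1 was positive, none was called and 2 had an unadjusted p below 0.05, with a median log2 fold change of -0.15. The summed NK cell level was 38 to 94.3, 62.8 to 87.1 and 80.6 to 111.4 in venetoclax mice of the 3 days and 51.8 to 63.7, 51.9 to 73.2 and 77.4 to 87.1 in vehicle mice. The part of T, B and NK cells in the 2 calls was not tested.

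Between day 7 and day 1 4 of 17 signalling genes rose and 5 fell, and of all 655 genes 191 rose and 110 fell, so these counts are near the 46% called over all genes. The adaptor Myd88 rose by 0.85 and Nfkb1 by 0.71, whereas Irak2 fell by 0.57 and Nfkb2 by 0.55. Of the inflammasome sensors and regulators 3 of 7 fell, Card9 by 0.74, Nod1 by 0.70 and Nlrc5 by 0.56, and none rose, beside the 110 of 655 genes that fell. Among the other receptors 1 of 6 tested was called, Il1rl1, which binds IL-33 and rose by 0.49. Of the IL-1 induced genes 1 of 9 tested was called, Csf3, which fell by 0.91. These tallies stand beside the 46% called over all genes.

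The 8 genes did not move as a block across mice. After the mean of each run was taken from log2 values, the 28 pairs had a median Pearson r of 0.14 over 33 mice, beside 0.06 over all pairs of tested genes. The lowest was -0.41, of Pycard and Il18, and the highest 0.71, of Casp1 and Il1rap. Without the 2 mice farthest from the Casp1 median, the latter was 0.48. The mice share runs and treatments, and shallow lanes add noise to low genes, so these values are a description.

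**Figure D4:**
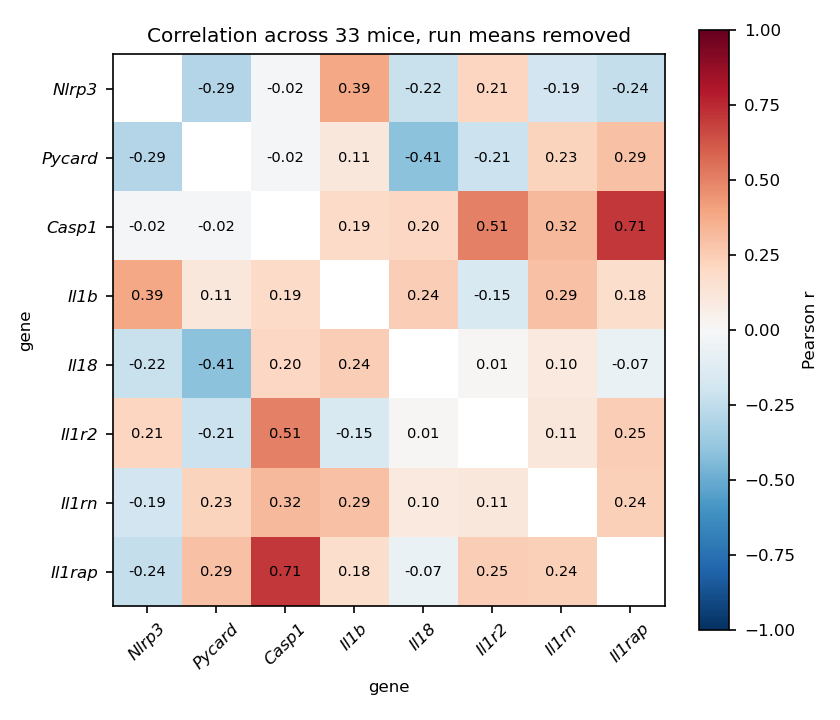
Pearson r between the 8 genes (both axes) over 33 mice, from log2(normalised count + 1) with run means removed. Red is positive and blue negative, on a scale from -1 to 1. The Casp1 and Il1rap cell is the highest at 0.71.

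Likeness was also taken by the same measure against the tested genes with a mean of at least 20 normalised counts, 354 of 655, which include 6 of the 8 members but not Pycard and Il18. The genes most like each member were Fos (0.74), Irak2 (0.74) and Csf3r (0.67) for Nlrp3. For Casp1 they were Cxcr4 (0.73), Il1rap (0.71) and Il17ra (0.69), and for Pycard Crebbp (0.56), Btk (0.55) and Ms4a1 (0.42). Il1b was most like Klra2 (0.70), Osm (0.61) and Cd84 (0.54), and Il18 most like Klrd1 (0.73), Ccl6 (0.60) and Hif1a (0.60). Il1r2 went with Myd88 (0.64) and Amica1 (0.63), and Il1rn with Chil3 (0.68), Clec5a (0.67) and Cyfip2 (0.65). Il1rap went with Runx1 (0.84), Fcer1a (0.74) and Casp1 (0.71). Without the 2 mice farthest from the member's median, Il1rap and Fcer1a fell to 0.34 and Il1r2 and Myd88 to 0.37, so both rest on those mice.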

How the data were processed

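Total BM RNA of 33 mice was measured on a NanoString nCounter, 1 lane per mouse. The authors deposited raw barcode counts for each lane, control probes included, and these counts precede the nCounter Advanced Analysis normalisation of the methods. Groups come from the sample labels. No lane was left out.

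For scaling, 11 of 20 housekeeping probes were above background in every lane, and their geometric mean gave factors of 0.18 to 3.41. Background was the mean plus 2 SD of 8 negative probes. A gene needed 2 lanes above background, and 655 genes met this. They were fitted in edgeR 4.0.16 (quasi-likelihood test, R 4.3.3) as 13 group means with 20 residual degrees of freedom and a biological coefficient of variation of 20.2%. P-values were adjusted by Benjamini-Hochberg and called below 0.05. The procedure was tested on simulated data. Replicate numbers did not pair the mice (4 of 12 pairs correlated above 0.1, from -0.35 to 0.30). Alternatives were other scalings (TMM, total count, all 20 housekeeping probes), DESeq2 1.42.0, limma 3.58.1 with a pseudocount of 1, other filters, other samples in the fit, a replicate block and leaving out mice.

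The 8 genes and the lists were chosen with earlier results of these data known. Fold changes with errors were to be named where the unadjusted p was below 0.05, and pathway genes where the adjusted p was. Others are given outside this rule, among them those of Casp1 for ruxolitinib and the differences in opposite directions, where groups did not overlap. The ends of ranges, the comparisons between days and the narrow NF-κB letters were chosen after values were seen. For each gene the 3 genes with the highest correlation, among 354 with a mean of at least 20 normalised counts, were to be named, and 1 of these is not reported here.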

Additional observations from a re-analysis of the deposited data

Results flagged for a closer look

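Effects in opposite directions were seen for 3 members, each with all mice of a drug group on 1 side of its vehicle and all mice of the other comparison on the opposite side. On day 1 this held between the drugs for 2 of 8 members and 8.09% of all genes, and for ruxolitinib between days 1 and 7 for 2 of 8 and 4.43%. None passed the edgeR test of the difference. Nlrp3 on day 1 was above vehicle with venetoclax and below with ruxolitinib, a log2 difference of 0.76 (adjusted p 0.407). The vehicles themselves differed there, with 48.6 and 43.8 normalised counts for venetoclax and 64.1 and 66.1 for ruxolitinib, and the drug mice, at 55.2 to 72.9 and 52.1 to 55.4, overlapped. Nlrp3 with ruxolitinib was below vehicle on day 1 and above on day 7, a log2 difference of 0.86 (adjusted p 0.477). Pycard with ruxolitinib was above vehicle on day 1 and below on day 7, a log2 difference of -1.02 (adjusted p 0.589). Il18 on day 1 was below vehicle with venetoclax and above with ruxolitinib, a log2 difference of -0.79 (adjusted p 0.493).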

How the results depend on the processing

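In 315 refits of the 15 planned comparisons under other settings, 0 called a member. Direction was followed over the settings only for the 2 gene and comparison pairs with an unadjusted p below 0.05 in edgeR. These were Il1b for ruxolitinib on day 7 and the ruxolitinib response of Nlrp3 on day 7 minus day 1, and neither reversed. With the replicate block 0 members were called in each of the 15 comparisons, 0 from day 1 to day 3, 4 from day 1 to day 7 and 3 from day 3 to day 7, as without it. The Il1b value for ruxolitinib on day 7 was 0.76 with the replicate block and 0.68 to 0.97 with 1 mouse left out. From day 1 to day 7, leaving out 1 mouse gave 1.26 to 1.4 for Il1rn, 0.95 to 1.19 for Il1rap, -0.76 to -0.63 for Nlrp3 and 0.34 to 0.47 for Casp1. From day 3 to day 7 total count scaling lost the Nlrp3 call and added Casp1 (0.53) and Il18 (0.58). Total count scaling moved the median of all genes from 0.14 to 0.34 between days 1 and 7, and TMM moved it to -0.04. Counts over all genes moved more: ruxolitinib day 1 had 18 calls and 10 to 77 under other settings, venetoclax day 1 had 1 and 0 to 26, and their difference 11 and 2 to 61. Ruxolitinib had 8 and 2 to 20 over the mean of 3 days, 10 and 5 to 22 for day 7 minus day 1, and 1 and 0 to 9 on day 3. Venetoclax had 19 and 11 to 28 over the mean of 3 days, the drug difference over that mean 4 and 3 to 10, and vehicles against untreated mice 0 and 0 to 5. Pycard, Il1b, Il18 and Il1rn were not above background in either lane under 30000 counts, nor were Nlrp3 and Il1rap in the ruxolitinib day 3 lane.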
